A study of Homo sapiens with 2 samples.

Results

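Transcription factors that mark ovarian and related lineages, or that are used as markers of stem-like cells, were followed in drug resistant A2780 cells, a line from a human ovarian carcinoma. They are PAX8, PAX2, WT1, SOX2, SOX9, SOX17, GATA4, GATA6, ESR1 and EBF1. They were chosen by name, and every probe whose gene name in the array files is one of these 10 was taken, which gave 17 probes out of 41000 and 10 genes out of 30238. A2780CBN is A2780 selected with carboplatin, for which the labels give 22.2 µM. A2780CBNDXL is A2780 selected with carboplatin and docetaxel together, for which the labels give 8.02 µM for the combination. In the paper 8.02 µM is the carboplatin part of an inhibitory concentration measured on A2780CBNDXL, with docetaxel in the nanomolar range. It is not the dose of selection and is not a like measure to 22.2 µM. Each line was hybridized against its control, the parental A2780 cells that were carried in co-culture beside the selection without drug (A2780CC). Each line is 1 selected population, and RNA of 3 isolations was pooled into 1 sample, which was put on 4 two-colour arrays, 1 forward and 1 reverse labelled on each of 2 slides. Since arrays repeat the same sample, their SD reflects labelling and hybridization, not the spread of cultures, and no test across cultures could be run. A bulk signal also cannot tell fewer cells that carry a transcript from less of that transcript in each cell.

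PAX8 and PAX2 are paired box factors of the Müllerian duct and kidney, and PAX8 is a widely used marker of ovarian carcinoma. WT1 is a zinc finger factor of the gonad, kidney and mesothelium that also marks serous carcinoma. SOX2 belongs to the core network of pluripotent cells. SOX9 drives testis and cartilage development and is active in many epithelial progenitors, while SOX17, GATA4 and GATA6 work together in endoderm, and GATA4 also acts in ovarian granulosa cells. ESR1 encodes estrogen receptor alpha, and EBF1 is a helix-loop-helix factor known best for starting the B cell programme and also active in mesenchymal and adipocyte precursors.

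Few of the factors gave a signal, and large changes were found for SOX9, EBF1 and 1 probe of SOX17. SOX9 was expressed in the controls and fell below detection in both resistant lines, by at least 28.8-fold in A2780CBN and at least 36.1-fold in A2780CBNDXL. EBF1 was at background in A2780CBN and its control and was bright in A2780CBNDXL alone. SOX17 was read differently by its 2 probes, one of which rose with EBF1. PAX8 and ESR1 gave weak signals that changed by less than 2-fold, and PAX2, WT1 and GATA4 stayed at background in all channels of the 8 arrays.

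A gene was called changed if the log2 ratio (resistant line over control) averaged 1 or more in size, had 1 sign throughout the 4 arrays, and came from a probe that the scanner software marked as well above background in the same channel each time. A gene with several probes was represented by the one with the highest mean signal. By this rule 3 of the 10 members could be measured in A2780CBN (PAX8, SOX9 and ESR1), and 1 of them, SOX9, was lower and 0 were higher, where 4.57% of the 17949 genes measured were lower and 8.01% higher. In A2780CBNDXL 5 of the 10 could be measured (PAX8, SOX9, SOX17, ESR1 and EBF1), with EBF1 higher and SOX9 lower, where 7.72% of the 17119 genes measured were higher and 9.24% lower. With so few members these counts describe single genes and say nothing about the set. The representative SOX17 probe did not count as measured in A2780CBN because the software marked its spot on array 4 as an outlier, and that array is left out of its values below.

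**Figure D1:**
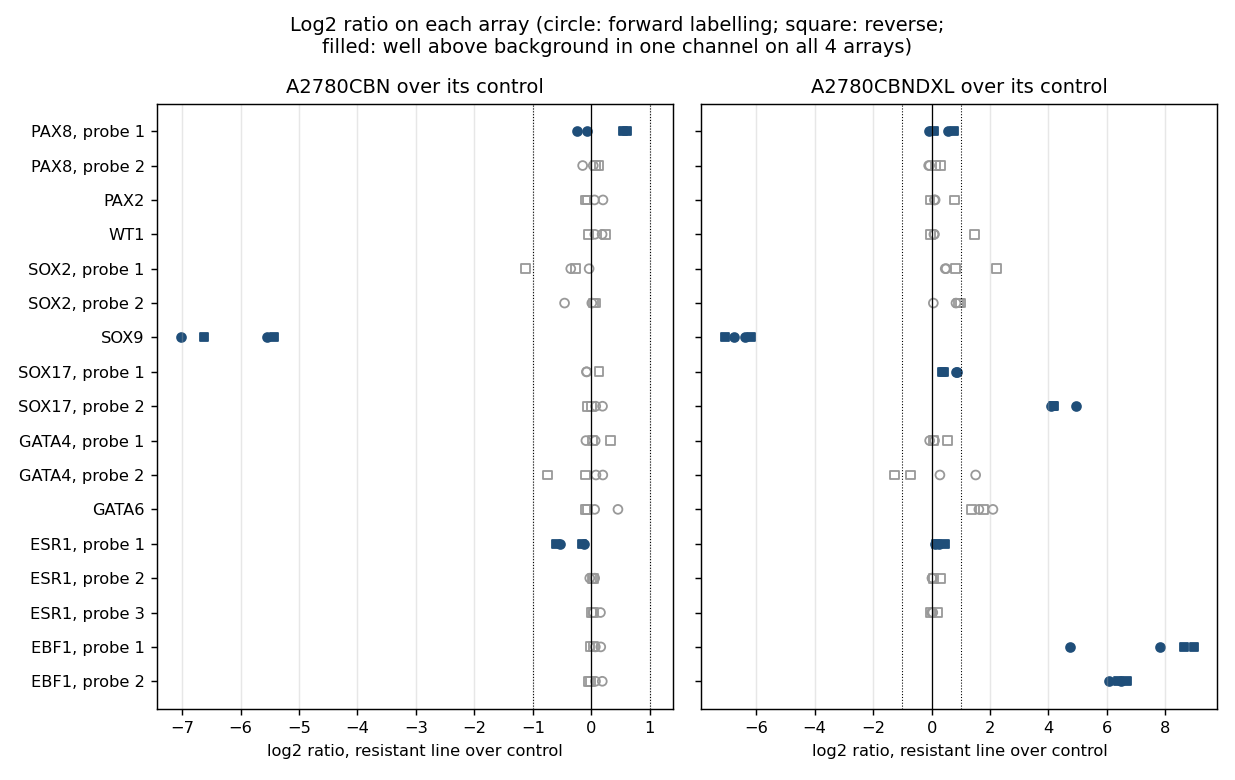
Log2 ratio of resistant line over control on each array for all 17 probes, A2780CBN on the left and A2780CBNDXL on the right. Circles are forward and squares reverse labelled arrays, filled symbols are probes well above background in the same channel on all 4 arrays, and dotted lines mark 2-fold. SOX9 lies below -5 on all 8 arrays, and both EBF1 probes and the second SOX17 probe lie above 4 in A2780CBNDXL only.

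SOX9 was measured by 1 probe, at chr17:67633436-67633495 on the plus strand of NCBI36, the build of the array files. In the control hybridized beside A2780CBN its processed signal, an intensity in arbitrary units after background and dye correction, was 738, 838, 517 and 608 on arrays 1 to 4. In A2780CBN it was 5.68, 19.6, 11.0 and 6.16, not well above background on any array. In the control beside A2780CBNDXL it was 925, 969, 766 and 501, and in A2780CBNDXL it was 8.44, 7.18, 9.25 and 6.90, again at background throughout. The control channels and the resistant channels did not overlap in either line, and the lowest control signal, 501, lay far above the highest of the resistant lines, 19.6.

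The mean log2 ratio of SOX9 was -6.16 ± 0.79 in A2780CBN and -6.60 ± 0.40 in A2780CBNDXL (SD, 4 arrays each). Because the resistant channel was at background, these ratios depend on the value given to an undetected spot, and the folds stated above are the safer reading. They set the control against the lowest signal still well above background on each array. The controls of the lines did not differ in SOX9 by the 2-fold rule, with a log2 difference of 0.17 ± 0.43 between those on the A2780CBNDXL and the A2780CBN arrays, and no difference between the resistant lines could be read because both were at background.

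EBF1 had 2 probes, at chr5:158056556-158056615 and chr5:158058593-158058652, both on the minus strand of NCBI36. On the first and brighter probe A2780CBNDXL gave 1506, 2032, 1951 and 2107 on arrays 1 to 4. Its control gave 6.61, 4.03, 72.9 and 5.31, so that the control was at background on 3 arrays and well above background on array 3. The mean log2 ratio was 7.55 ± 1.93 (SD, 4 arrays) and 8.32 without array 3. On the second probe A2780CBNDXL gave 409, 434, 410 and 429, against 6.13, 4.23, 4.58 and 5.21 in its control, which was at background on all 4 arrays. This probe rose by at least 21.4-fold, and its log2 ratio was 6.40 ± 0.26.

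In A2780CBN neither EBF1 probe was well above background in any channel, with signals of the first probe between 4.18 and 5.00 in the line and between 4.08 and 5.09 in its control. The 2 resistant lines therefore differed directly as well as through their controls. When the resistant channels of matched arrays were compared after scaling between arrays (Aquantile), A2780CBNDXL exceeded A2780CBN by at least 79.9-fold on the first EBF1 probe and at least 17.7-fold on the second. EBF1 was the 1 member of the 4 measured that differed between the resistant lines, where 15.3% of 18389 genes differed. Between the controls the 4 members measured were PAX8, SOX9, SOX17 and ESR1, and 0 of them differed, where 4.37% of 18179 genes did. EBF1 could not be compared between the controls, because its first probe was well above background there on only 1 array and its second on none.

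The EBF1 promoter is shown because this gene went from background to a bright signal. The 250 bases before the start of EBF1 in RefSeq on GRCh38.p14, chr5:159097957-159098206, minus strand, are given 5′ to 3′ with each CG pair, the site at which promoters are methylated, in capitals.
EBF1 promoter: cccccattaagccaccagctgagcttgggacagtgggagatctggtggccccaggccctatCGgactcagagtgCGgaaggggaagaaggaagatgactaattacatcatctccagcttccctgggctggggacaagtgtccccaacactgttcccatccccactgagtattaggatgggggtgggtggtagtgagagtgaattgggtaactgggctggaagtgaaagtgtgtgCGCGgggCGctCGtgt
It holds 6 CG pairs at a GC content of 57.2%, where the median of 27305 promoters of this length was 11 pairs and 58.0%. Of the other 9 members 6 had a promoter in the table, and ESR1 had 3 CG pairs, PAX2 10, PAX8 11, GATA6 16, WT1 19 and SOX2 20. The letters ACAAT (a core bound by SOX factors, present in 25.2% of all promoters), AGATAA (bound by GATA factors, 9.4%) and TATAAA (the TATA box, 11.1%), searched on both strands, were not in the EBF1 window. The ACAAT letters occurred once among the 7 members, in the ESR1 promoter. For each gene only the first listed start was taken, without matching it to the transcript of the probe, and whether these cells use that start was not tested. A match or its absence in this window says nothing about binding.

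**Figure D2:**
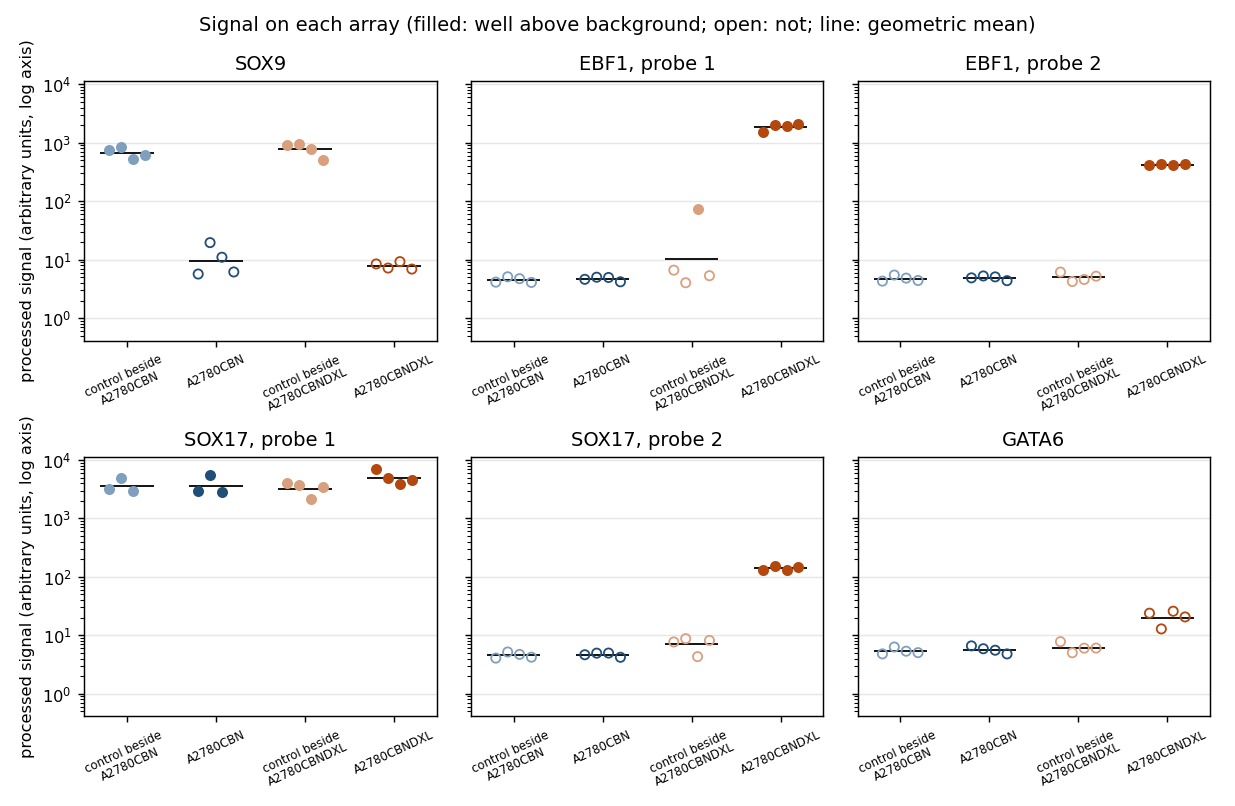
Processed signal (arbitrary units, log axis) of SOX9, both EBF1 probes, both SOX17 probes and GATA6 on each array, in the 2 resistant lines and their controls. Filled points are well above background, open points are not, and bars are geometric means. SOX9 is bright in the controls alone, the second EBF1 and second SOX17 probes in A2780CBNDXL alone, the first EBF1 probe in A2780CBNDXL and weakly on 1 control array, and the first SOX17 probe in all 4 channels.

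SOX17, an endoderm and germ cell factor that represses WNT signalling, was the member whose probes disagreed. Its brighter probe, with a GC content of 76.7%, was far above background in every channel. It gave 2956, 5423 and 2834 in A2780CBN and 3136, 4953 and 2993 in its control on arrays 1 to 3. In A2780CBNDXL it gave 7128, 4823, 3851 and 4521 and in its control 3962, 3728, 2128 and 3401. The log2 ratio was 0.02 ± 0.12 (SD, 3 arrays) in A2780CBN and 0.62 ± 0.27 (SD, 4 arrays) in A2780CBNDXL, where all 4 arrays were positive but the mean was below 2-fold. The second probe, with a GC content of 40.0%, was at background in A2780CBN and in both controls and gave 132, 156, 133 and 150 in A2780CBNDXL against 7.70, 8.77, 4.32 and 8.19 in its control.

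On that second probe SOX17 rose by at least 7.18-fold in A2780CBNDXL, with a log2 ratio of 4.35 ± 0.40, and A2780CBNDXL exceeded A2780CBN by at least 5.94-fold. Both probes lie on chromosome 8 and carry the same transcript name in the files. The probes thus gave the same sign in A2780CBNDXL and different sizes, and whether the GC-rich probe also binds other transcripts was not tested. When the probes of a gene were averaged instead of taking the brighter one, SOX17 joined SOX9 and EBF1 as changed in A2780CBNDXL.

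GATA6, a zinc finger factor of endoderm and gonad, gave a small signal in the same channel. In A2780CBNDXL its 1 probe, at chr18:18035791-18035850, gave 23.9, 12.9, 25.9 and 20.6 against 7.79, 5.04, 6.04 and 6.06 in the control. All 4 signals of the line were above all 4 of the control, and the log2 ratio was 1.71 ± 0.31. No channel passed the background mark on any array, and the difference was not counted. In A2780CBN GATA6 gave 4.82 to 6.60 in the line and 4.82 to 6.32 in the control. GATA4 has 2 probes, with signals of 4.73 to 6.38 in A2780CBN and 5.01 to 24.2 in A2780CBNDXL, and none was well above background in any channel. The highest GATA4 signals came from array 1 of A2780CBNDXL, 24.2 in the line and 25.4 in the control, and this array had a coefficient of variation of its spike-in spots of 19.5% in the green channel, against 3.56% to 4.73% in that channel on the other 7 arrays.

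ESR1 was measured by 3 probes. The one well above background in every channel is shown because it begins at the ATG of the coding sequence, at chr6:152170741-152170800 on the plus strand of NCBI36, and stays in an open frame over its 60 bases. The ATG is in capitals.
ESR1 coding probe: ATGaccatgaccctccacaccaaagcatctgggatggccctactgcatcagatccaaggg
It gave 58.5, 66.8, 80.3 and 81.2 in A2780CBN and 85.2, 74.4, 87.5 and 124 in its control. In A2780CBNDXL it gave 67.1, 71.4, 90.4 and 87.6 against 62.5, 52.3, 75.4 and 78.9. Line was below control on all 4 arrays of A2780CBN and above it on all 4 of A2780CBNDXL, yet the log2 ratios of -0.36 ± 0.25 and 0.24 ± 0.15 were both well under 2-fold. When each line was set against the other line's control instead, both signs turned, to 0.13 in A2780CBN and -0.25 in A2780CBNDXL.

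The other 2 ESR1 probes, at chr6:152465601-152465660 and over chr6:152064775-152170671, the latter a genomic span far longer than the probe, were at background in every channel, with signals of 4.46 to 7.63. The ESR1 reading thus rests on the probe at the start of the coding sequence. The resistant lines did not differ on it by the 2-fold rule, with a log2 difference of 0.11 ± 0.18 between A2780CBNDXL and A2780CBN, and the control channels differed by -0.49 ± 0.25.

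PAX8 was weak in all 4 channels. On its brighter probe, at chr2:113691496-113691555 on the minus strand, A2780CBN gave 36.8, 69.2, 53.8 and 62.8 and its control 38.8, 45.6, 63.9 and 43.1. A2780CBNDXL gave 35.5, 45.9, 65.2 and 67.2 and its control 37.7, 43.8, 43.7 and 40.0. The log2 ratio was 0.21 ± 0.43 in A2780CBN and 0.33 ± 0.40 in A2780CBNDXL, no larger than the spread between arrays. In A2780CBN the sign followed the labelling, at -0.16 on the forward and 0.57 on the reverse arrays, and in A2780CBNDXL the size followed the slide, at -0.01 on slide 1 and 0.66 on slide 2. The second PAX8 probe, over chr2:113715735-113716075, was at background throughout.

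PAX2 and WT1, with 1 probe each, gave 4.71 to 9.46 and 4.93 to 14.1 over all channels and were never well above background. SOX2 lay at the edge of detection. Its first probe, at chr3:182913440-182913499, gave 10.6 to 19.2 in A2780CBN and 16.1 to 23.2 in its control, and 22.5 to 35.7 in A2780CBNDXL against 7.67 to 17.3. This probe was well above background on 2 arrays in A2780CBNDXL, on 1 array in the control of A2780CBN and nowhere else, so that it was not counted. The second SOX2 probe, at chr3:182914571-182914630, gave 22.0 to 30.9 in A2780CBNDXL and 11.1 to 29.6 in its control, and 4.03 to 6.35 in A2780CBN and its control. Both channels of array 3 of A2780CBNDXL passed the background mark on that second probe, and no other array did.

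**Figure D3:**
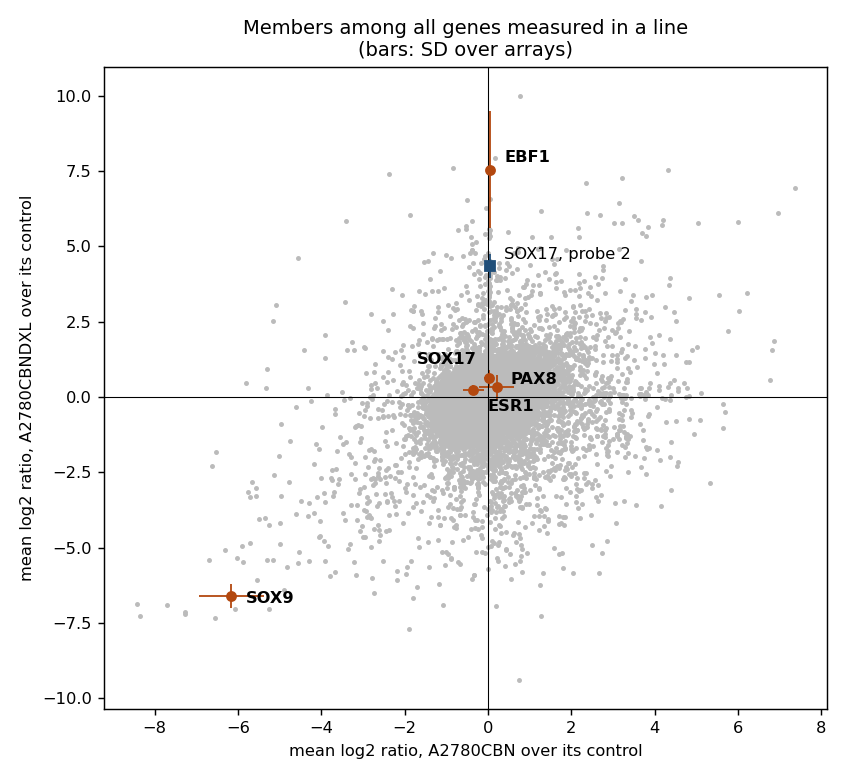
Mean log2 ratio in A2780CBN (x axis) and in A2780CBNDXL (y axis) of all genes measured in at least 1 line (grey), with the members measured in a line (round, bars are the SD over arrays) and the second SOX17 probe (square). SOX9 lies far down in both lines, EBF1 and the second SOX17 probe lie high in A2780CBNDXL with A2780CBN at 0.06 and 0.05, and PAX8, ESR1 and the first SOX17 probe lie near the centre.

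Relatives of the members moved in both directions. Of 30 PAX, SOX, GATA and EBF genes outside the 10, 19 were measured in A2780CBN with 1 higher and 2 lower, and 17 in A2780CBNDXL with 3 higher and 3 lower. Their median log2 ratios were 0.07 and 0.13, beside -0.06 and 0.04 for all genes measured. Of all genes measured 8.01% were higher and 4.57% lower in A2780CBN, and 7.72% and 9.24% in A2780CBNDXL. These shares and medians apply beside the counts of every list below, and counts of so few genes describe single genes, not a list. SOX5, a partner of SOX9 in cartilage, was lower in both lines, by at least 2.00-fold in A2780CBN and at least 6.29-fold in A2780CBNDXL. Both lines were at background and the controls gave mean signals of 44.3 and 136, so the bounds do not rank the falls. In the EBF family, EBF2 was lower in both lines, from mean signals of 115 to 19.0 in A2780CBN and 140 to 19.8 in A2780CBNDXL, EBF4 was higher in A2780CBN at 1.21 ± 0.26, and EBF3 was higher in A2780CBNDXL at 3.22 ± 0.44. GATA5 was lower in A2780CBNDXL, from 302 to 24.3. The resistant channel was well above background on only 1 array for GATA5 and on 1 and 2 arrays for EBF2, so that the sizes of these falls depend on the values given to undetected spots.

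Of 18 cofactors and partners, 13 were measured in A2780CBN with 0 higher and 1 lower, and 14 in A2780CBNDXL with 1 higher and 3 lower, at medians of -0.07 and -0.25. ZNF423, a zinc finger protein that binds EBF1, was the one called higher in A2780CBNDXL, from a mean signal of 103 to 336 and a log2 ratio of 1.70 ± 0.11. In A2780CBN, where EBF1 was at background, ZNF423 also lay above its control, from 135 to 238. Its log2 ratio there was 0.83 ± 0.45, under the 2-fold limit. PAWR, which binds WT1, fell in both lines, at -1.27 ± 0.18 and -1.51 ± 0.09, and the corepressor TLE4 fell in A2780CBNDXL at -2.08 ± 0.07.

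Among 10 B lineage genes, in which EBF1 acts in lymphocytes, 3 were measured in A2780CBN and 0 changed. In A2780CBNDXL 4 were measured. IGLL1, part of the surrogate light chain, rose from a mean signal of 204 to 438, at a log2 ratio of 1.11 ± 0.07. CD79B, VPREB1, BLNK and IRF4 were not above background in any channel. The summed signal of the 10 genes was 16334 to 20922 in A2780CBNDXL and 16718 to 20171 in its control. Most of this sum came from TCF3, with mean signals of 14904 in the line and 16076 in the control. The overlap of the sums therefore cannot show whether the dimmer genes of the list changed. The leukocyte antigen PTPRC was at background in all channels.

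Receptors related to ESR1 changed more than ESR1 itself. Of 9 steroid receptors and relatives, 4 were measured in each line, with 2 higher and 1 lower in A2780CBN and 0 higher and 2 lower in A2780CBNDXL. The estrogen related receptor ESRRG was lower in both, at -3.21 ± 0.06 in A2780CBN and by at least 29.3-fold in A2780CBNDXL. The membrane estrogen receptor GPER was higher in A2780CBN, at 1.07 ± 0.58, and at 0.93 ± 0.05 it lay just under the 2-fold limit in A2780CBNDXL. Of 15 estrogen-responsive genes, 11 were measured in each line. In A2780CBN 0 were higher and 1 lower, where 8.01% and 4.57% of all genes measured were. In A2780CBNDXL 1 was higher and 4 lower, where 7.72% and 9.24% of all genes measured were. The medians were 0.09 and -0.56, beside -0.06 and 0.04 for all genes measured. The lower ones in A2780CBNDXL were CA12 at -3.19 ± 0.16, MYB by at least 4.15-fold, NRIP1 at -1.01 ± 0.21 and PDZK1 at -1.004 ± 0.18, and PDZK1 was also the one lower in A2780CBN, by at least 4.56-fold.

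Of 15 pluripotency and stemness genes, 10 were measured in A2780CBN and 9 in A2780CBNDXL, with 0 higher and 3 lower in each, where 4.57% and 9.24% of all genes measured were lower, and most of the list did not change. The medians were -0.43 and -0.40. ZFP42 (REX1), a marker of pluripotent cells, fell by at least 2.27-fold in A2780CBN and at least 9.45-fold in A2780CBNDXL. Here too both lines were at background and the controls differed, at mean signals of 50.7 and 203, so the bounds do not rank the falls. TERT, the catalytic subunit of telomerase, fell at -1.39 ± 0.65 and -1.71 ± 0.04. The RNA binding protein LIN28 fell in A2780CBN at -3.50 ± 0.09, and MYC in A2780CBNDXL at -1.02 ± 0.07.

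Of 19 Müllerian, gonadal and mesothelial genes, 6 were measured in each line with 1 higher and 1 lower in each, at medians of -0.08 and 0.29. NR2F2, an orphan receptor of mesenchyme, rose in both at 1.06 ± 0.13 and 1.63 ± 0.16. FOXL2, a factor of granulosa cells, fell in A2780CBNDXL from a mean signal of 2440 to 186, at -3.71 ± 0.11, and the hormone AMH was lower in A2780CBN at -1.01 ± 0.77. Of 10 endoderm genes that act beside SOX17, GATA4 and GATA6, 2 were measured in each line. AFP, the fetal serum protein, was higher in A2780CBN by at least 3.08-fold, and in A2780CBNDXL, where SOX17 rose on one probe, EOMES and CXCR4 were lower at -1.92 ± 0.73 and -1.64 ± 0.38. The controls differed for CXCR4, at mean signals of 392 beside A2780CBNDXL and 17.0 beside A2780CBN, with A2780CBNDXL itself at 121. For AMH the control beside A2780CBN gave 337 and the one beside A2780CBNDXL 140, with A2780CBN at 169. The falls of CXCR4 and AMH therefore hold only against each line's own control.

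The genes whose ratios over the 8 arrays were most like SOX9, among 11539 named genes well above background in the same channel on all arrays, were the growth factor FGF20, at -6.08 and -7.04 with a root mean square difference of 0.80, and the WNT receptor FZD8, at -5.27 and -7.03 with a difference of 1.01. Those most like EBF1 were CHODL at -0.84 and 7.59 and LRRC17 at 1.28 and 6.17, with differences of 1.47 and 1.77. The first value of each pair is A2780CBN and the second A2780CBNDXL, and the likeness is a description over 8 arrays of 2 samples. The order rests on values given to undetected spots, since SOX9 was at background in both resistant lines, EBF1 was at background in both channels of A2780CBN, and FGF20 was at background in both resistant lines, with falls of at least 17.7-fold and at least 43.5-fold.

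Markers of epithelial and of mesenchymal cells were both present in A2780. Of 11 epithelial and ovarian carcinoma markers, KRT8, KRT18, EPCAM and WFDC2 were among those measured in A2780CBN, while KRT7, CDH1, MUC16 and CLDN4 were at background in every channel. The summed signal of these 11 was 4384 to 4747 in A2780CBN against 2769 to 3019 in its control, and 4282 to 5342 in A2780CBNDXL against 2996 to 3645. The 6 mesenchymal markers summed to 272667 to 355768 in A2780CBN against 87492 to 192160, and to 247099 to 356790 in A2780CBNDXL against 191667 to 261633. The epithelial sums did not overlap between line and control in either line. The mesenchymal sums did not overlap in A2780CBN and overlapped in A2780CBNDXL. Bright genes made up large parts of the sums. KRT18 had mean signals of 2562 in A2780CBN and 2099 in A2780CBNDXL, and VIM 256624 and 246961. The sums therefore do not describe each list. Of the epithelial markers 3 of 7 measured were higher in A2780CBN and 1 of 6 in A2780CBNDXL, with 0 lower. Of the mesenchymal markers 3 of 6 and 2 of 4 were higher, with 0 lower. Over all genes measured 8.01% and 7.72% were higher. The part of these markers in the SOX9 or EBF1 result was not tested. The endothelial markers PECAM1, CDH5 and KDR were at background in every channel.

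The size of the changes depended on how the background was treated, as the comparison of 3 ways of processing shows. With normexp background correction and an offset of 50, which pulls ratios of weak spots towards 0, the log2 ratio of SOX9 was -1.48 in A2780CBN and -1.92 in A2780CBNDXL, and those of the EBF1 probes 3.02 and 1.48 in A2780CBNDXL, all still past 2-fold. The second SOX17 probe went from 4.35 to 0.68, close to the 0.54 of the first probe under the same correction.

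**Figure D4:**
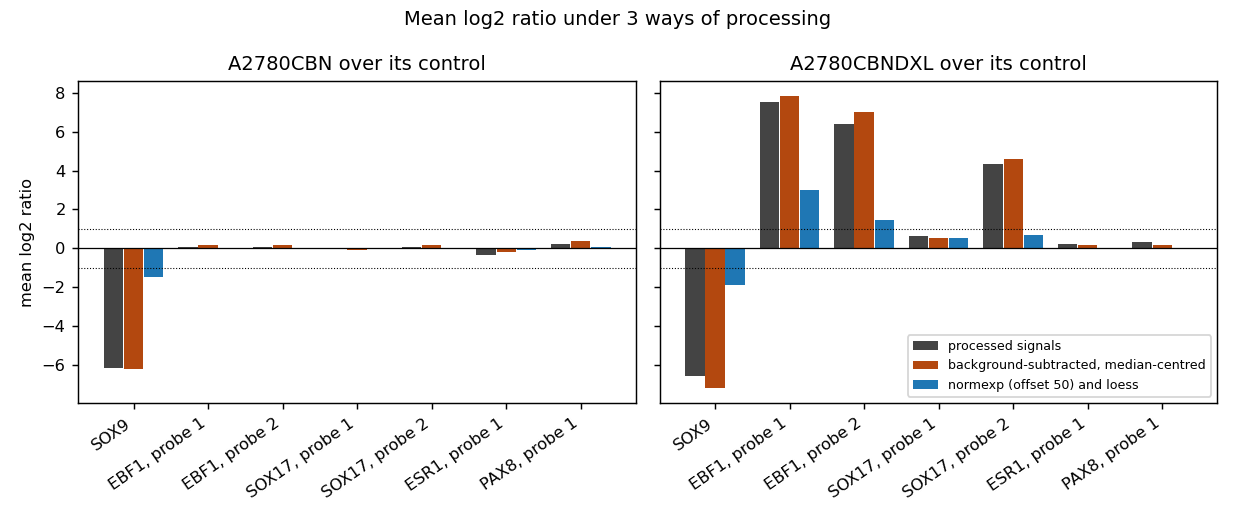
Mean log2 ratio of resistant line over control (bars start at 0) for 7 probes of SOX9, EBF1, SOX17, ESR1 and PAX8, with processed signals, background-subtracted signals centred on the median, and normexp correction with loess. Dotted lines mark 2-fold. SOX9 stays below -1 in both lines and both EBF1 probes above 1 in A2780CBNDXL in all 3, while the second SOX17 probe falls below 1 with normexp.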

How the data were processed

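Expression was measured on 8 Agilent two-colour whole human genome arrays, 4 for A2780CBN and 4 for A2780CBNDXL. The authors deposited the scanner output of Agilent Feature Extraction, in version 10.7.1.1 (slide 1) or version 10.7.3.1 (slide 2), with probe coordinates on NCBI36. The deposited processed intensity of each channel was background-subtracted, detrended and dye-normalized by the software, with a substitute value for signals close to background. Raw and background-subtracted intensities served for alternatives only.

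On forward arrays the labels put the control in Cy3 and the resistant line in Cy5. The dye entries of the reverse arrays repeat this, while their name and the study's methods state the opposite, and they were turned over accordingly, after which forward and reverse log2 ratios correlated at 0.58 to 0.61 in A2780CBN and 0.73 to 0.74 in A2780CBNDXL across probes. The sign of every ratio rests on the forward labels. Spots marked as outliers were dropped, 0 spots were saturated, spots of a probe were averaged, and log2 ratios were averaged first by labelling direction. The share of spots well above background ranged from 59.8% to 67.5% over the channels, and the number of arrays limits the precision.

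Folds with 1 channel at background on all 4 arrays of a line are lower bounds, from channel values scaled by Aquantile in limma, of the bright mean over the mean of the lowest signal well above background or the probe's own signal, whichever was higher on each array. The 10 members, all lists and the call rule were chosen with earlier results of these data known. The text names all members with every probe, at most 4 changed genes per related list and line (2 list genes that this rule names are not reported here), and the 2 most alike genes per changed member. Alternatives were normexp with loess, background-subtracted signals, arrays left out, slides alone, other filters and fold limits, the mean over probes, a 3-way ANOVA and the control channel of the other line. On simulated arrays of 17949 genes for A2780CBN and 17119 for A2780CBNDXL the 2-fold rule recovered 100 of 100 genes changed 3-fold and 100 of 100 changed 8-fold, with 4 and 6 false calls. The simulation took only genes that had passed the background filter, set no detection limit and drew noise from the spread between arrays. It therefore does not cover genes with a channel at background, such as SOX9 and EBF1, or differences between cultures. Python 3.11.15 was used with pandas 2.3.3, numpy 2.4.6, matplotlib 3.10.9 and scipy 1.17.1, and limma 3.58.1 with R 4.3.3. The A2780DXL line was not analysed here.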

Additional observations from a re-analysis of the deposited data

Results flagged for a closer look

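For ESR1 and SOX2 the ratios of 1 probe had opposite signs in the lines, each against its own control. On the ESR1 coding probe all 4 arrays of A2780CBN were negative and all 4 of A2780CBNDXL positive, and the mean log2 ratios differed by 0.60. The line channels themselves differed by 0.11 and the control channels by -0.49, and against the other line's control the signs turned, to 0.13 and -0.25. On the first SOX2 probe the ratios differed by 1.45, a value that rests on spots at background, since the probe was well above background only on 2 arrays in A2780CBNDXL and on 1 in the control of A2780CBN. Its control channels differed by -0.75, against the other line's control its ratios were 0.30 and 0.25, and the second SOX2 probe did not share the pattern, at -0.46 to 0.08 in A2780CBN. Neither difference was tested, since each line is 1 sample. On the second SOX17 probe in A2780CBNDXL, 1 array, with a log2 ratio of 4.95, stood apart from the other 3, at 4.10 to 4.19, with a gap of 0.89 of the whole range, and chance sets apart about 1 in 20 such groups.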

How the results depend on the processing

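The 3-way ANOVA took channel values of repeat arrays of 1 sample as observations. It is no test across cultures, and its calls are left aside here. SOX9 remained the changed member in A2780CBN, and SOX9 and EBF1 remained changed in A2780CBNDXL, under every other alternative run except 1. That exception asked for both channels well above background on all arrays. It left 0 members in each line because the dim channel of these genes is at background. The same demand on both lines left 0 members differing between the resistant lines, while no filter on dim probes gave 2 (EBF1 and GATA6) and the mean over probes gave 2 (EBF1 and SOX17). In A2780CBNDXL the count rose to 3 with SOX17 at the 1.5-fold limit and with probes averaged, and with GATA6 when dim probes were kept. With arrays left out in turn the counts were 1 in A2780CBN, 2 in A2780CBNDXL, 1 between the lines and 0 between the controls each time. Over 10 alternatives that change a value, all 30 log2 ratios of the changed members kept their sign, from -6.52 to -1.48 for SOX9 in A2780CBN, from -7.22 to -1.92 for SOX9 in A2780CBNDXL and from 3.02 to 8.68 for EBF1 in A2780CBNDXL. No paired analysis was possible because each line is 1 sample. Signals near background limited what could be measured for the members that were not counted.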
